A study of Homo sapiens with 12 samples.

Results

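Replacement histone variants were followed in A375 cells through MAPK inhibition and recovery. The members were the 9 genes H1-10, H2AX, H2AZ1, H2AZ2, H2AJ, MACROH2A1, MACROH2A2, H3-3A and H3-3B, picked out by symbol among the 44659 genes of the count table. That rule uses no measured value, although earlier results of these data were known when the members were chosen. A375 is a human melanoma line that carries an activating BRAF mutation. Control cells (CTRL) received DMSO for 72 h. Inhibition of the MAPK pathway (MAPKi) combined 500 nM of the BRAF inhibitor vemurafenib with 500 nM of the MEK inhibitor cobimetinib, and treated cells (TC) were harvested at its end, after 72 h. Persister cells (PC) had the same 72 h of MAPKi and then 2 days without drug, and recovered cells (RC) had it and then 9 days without drug. Each group had 3 libraries of cytoplasmic RNA depleted of ribosomal RNA, 12 in all. All cells came from 1 line kept in the same medium, and no DMSO cells of day 2 or day 9 were analysed here, so that time in culture and drug history cannot be told apart in PC and RC. The labels give replicate numbers without saying that they were separate cultures, and p-values measure only the spread between these libraries.

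Canonical histones are made in S phase from clustered genes without introns, and their mRNAs end in a stem-loop in place of a poly(A) tail. Replacement variants are encoded outside those clusters and can be made and deposited without DNA replication. H2A.Z, which marks promoters and enhancers, comes from H2AZ1 and H2AZ2. H2A.X is phosphorylated around DNA breaks, and its phosphorylated form is the damage mark gamma-H2AX. The macroH2A proteins carry a large globular domain and are known for repressed chromatin, H3.3 comes from H3-3A and H3-3B and enters active genes and heterochromatin through separate chaperones, and H1-10 is a linker histone.

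Total counts ran from 37773389 to 55567097 per library, and a floor of 3 counts was 0.0534 to 0.0785 CPM (counts scaled to the TMM-normalized library size), a limit that covers counting error only. The first principal component held 70.1% of the variance and set TC and PC apart from CTRL and RC. Melanocytic markers (SOX10, MITF, PMEL and 5 others) summed to 1665 to 1892 CPM in CTRL, although MLANA stood at 0.339 to 0.656 CPM there. The melanocytic sum was 7093 to 10310 CPM in TC, 3496 to 5107 in PC and 1528 to 1594 in RC. DCT made up most of it in TC, with a mean of 407 CPM in CTRL, 6452 in TC and 2601 in PC. Of the 8 markers, 6 were higher and 1 lower in TC, and 6 were higher and 1 lower in PC. S100B had a mean of 264 CPM in CTRL, 140 in TC and 272 in PC. MITF had 362 CPM in CTRL, 321 in TC and 221 in PC. The part of these markers in the changes of the variants was not tested. In all libraries, 7 markers of keratinocytes, leukocytes and endothelium summed to 2.09 to 5.77 CPM, with CDH5 at 0 in every library. Output genes of the MAPK pathway were lower for 9 of 10 in TC and likewise for 9 of 10 in PC. In RC, 2 of the 10 were lower and 8 did not pass the test.

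The 9 variants did not move together. Of the 8 that could be tested, 2 were higher and 6 lower in TC than in CTRL, where 33.2% of all 15916 genes tested were higher and 34.7% lower. The H3.3 genes H3-3A and H3-3B were the 2 that rose. H2AZ1, H1-10 and H2AX fell beyond 1.5-fold, 3 of 8 beside 19.3% of all genes, and without CTRL replicate 2 only H2AZ1 did. In PC, 4 were higher and 4 lower (33.2% and 35.9% of all genes), and H2AZ1, H1-10 and MACROH2A1 were lower beyond 1.5-fold (19.9% of all genes), a call that H1-10 lost in 13 of 19 alternatives, among them without CTRL replicate 2, which left 2. In RC, 5 were higher and 1 lower (18.2% and 19.1% of all genes), and H2AX and H2AZ1 were higher beyond 1.5-fold, 2 of 8 beside 1.35% of all genes, of which H2AZ1 lost that call without CTRL replicate 1 or any single RC library. The 1 lower in RC, MACROH2A2, was called in 4 of 19 alternatives. TC, PC and RC were set against the same 3 CTRL libraries, so these counts are not independent of each other. The median log2 fold change of the 8 variants was -0.43 in TC, -0.02 in PC and 0.39 in RC, beside -0.02, -0.04 and 0.00 for all genes tested.

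Between neighbouring times the variants again changed in both directions. From TC to PC, 3 were higher and 1 lower (12.2% and 12.5% of all genes), and H2AX was higher beyond 1.5-fold (2.33% of all genes), joined by H2AZ1 without CTRL replicate 1. From PC to RC, 4 were higher and 2 lower (35.7% and 34.2% of all genes), and the 4 higher, H1-10, H2AX, H2AZ1 and MACROH2A1, all passed the 1.5-fold test (20.2% of all genes). The 2 lower from PC to RC were H3-3A and H3-3B. Medians of the 8 were 0.12 and 0.48 for these steps, beside 0.00 and 0.01 for all genes. In these bulk libraries, fewer cells that make an mRNA and less of that mRNA per cell cannot be told apart.

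**Figure D1:**
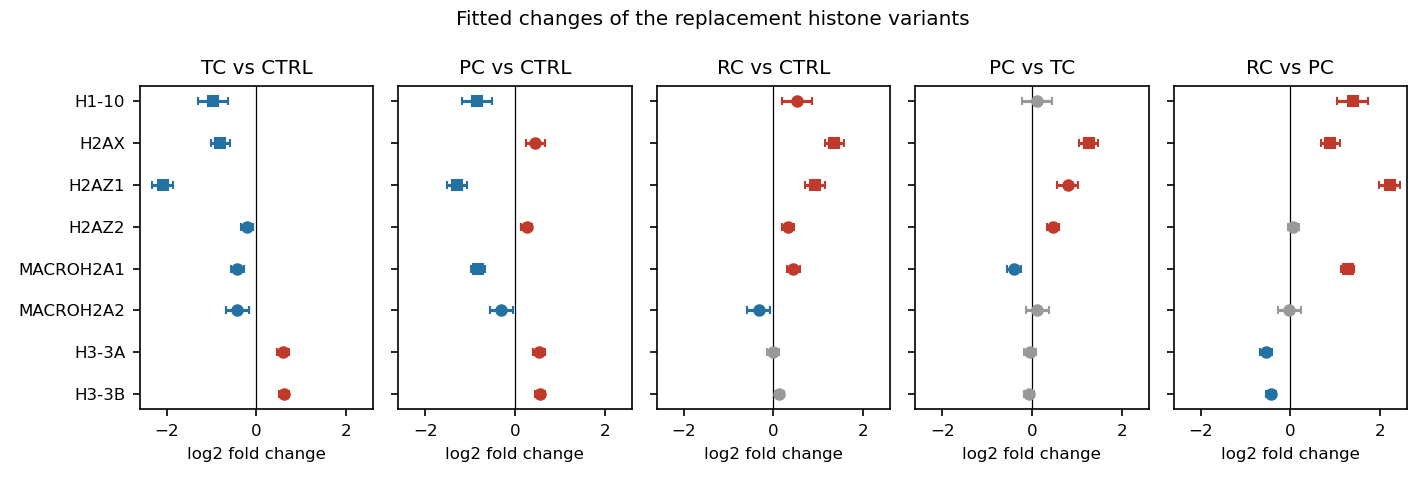
Fitted log2 fold changes (x axis) of the 8 tested variants (y axis) in 5 comparisons, with 95% confidence intervals. Red was higher, blue lower and grey not called at an adjusted p of 0.05, and squares passed the 1.5-fold test. H2AZ1 had the lowest value in TC (-2.09), and both H3.3 genes lay right of 0 in TC and PC.

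Among the variants, H2AZ1 changed most in TC and PC against CTRL and from PC to RC, while H2AX changed most in RC against CTRL and from TC to PC, and H2AZ2, the other H2A.Z gene, changed less than H2AZ1 in all 5 comparisons. H2AZ1 (chr4:99948086-99950355 on GRCh38, minus strand) has 5 exons in its canonical transcript, as does H2AZ2 (chr7:44826791-44848087, minus strand). Their coding sequences have 387 bases each, of which 76 differ (80.4% identity), and 65 of the differences lie at the third codon position. The first 120 coding bases are shown because they give the bases by which reads of the 2 genes can be told apart; capitals mark the bases that differ between them (29 in this stretch), and both sequences are from GENCODE v44.
H2AZ1: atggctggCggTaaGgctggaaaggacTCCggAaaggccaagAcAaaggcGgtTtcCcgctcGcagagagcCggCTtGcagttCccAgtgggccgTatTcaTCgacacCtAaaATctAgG
H2AZ2: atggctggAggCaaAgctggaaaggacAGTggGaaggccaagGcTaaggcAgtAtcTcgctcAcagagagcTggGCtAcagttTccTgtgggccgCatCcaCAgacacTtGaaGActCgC

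H2AZ1 stood at 453, 639 and 594 CPM in CTRL replicates 1 to 3 and at 141, 132 and 124 CPM in TC. In PC it was 220.0, 232 and 237 CPM, and in RC 1061, 1088 and 1056 CPM. None of the 4 groups overlapped, and the order was TC, PC, CTRL, RC. H2AZ1 fell by 2.09 ± 0.11 (SE) on the log2 scale in TC (adjusted p = 7.24e-09) and its change from CTRL in PC was -1.29 ± 0.11 (adjusted p = 3.58e-07). It rose 0.80 ± 0.10 from TC to PC (adjusted p = 0.000209) and 2.22 ± 0.11 from PC to RC (adjusted p = 4.06e-09). RC exceeded CTRL by 0.93 ± 0.10 (adjusted p = 6.78e-05), 1.90-fold. The rise beyond 1.5-fold in RC was not called without CTRL replicate 1 (adjusted p = 0.0514), without any single RC library (0.0518 to 0.079) or when only RC and CTRL were fitted (0.0741), and the rise from TC to PC passed that test without CTRL replicate 1 (0.021).

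H2AZ2 had a far smaller range. Its values were 153, 178 and 167 CPM in CTRL, 142, 143 and 144 CPM in TC, 191, 202 and 204 CPM in PC, and 209, 211 and 206 CPM in RC. No TC library reached the lowest CTRL library, and every PC and RC library lay above the highest. H2AZ2 fell by 0.22 ± 0.06 in TC (adjusted p = 0.00654, and 0.059 when only TC and CTRL were fitted). It was higher than CTRL by 0.26 ± 0.06 in PC (adjusted p = 0.00216) and by 0.33 ± 0.06 in RC (adjusted p = 0.0014), and the step from PC to RC was 0.07 (95% confidence interval -0.06 to 0.20, adjusted p = 0.337).

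The share of H2AZ1 among the reads of both genes was taken within each library, a measure that needs no scaling between libraries but is not corrected for length. It was 74.7, 78.2 and 78.0% in CTRL and 49.8, 47.9 and 46.4% in TC. In PC it was 53.5, 53.4 and 53.8%, and in RC 83.6, 83.8 and 83.7%. H2AZ1 reads outnumbered H2AZ2 reads 2.95 to 3.59 times in CTRL, fell below them in TC (0.866 to 0.992) and reached 5.08 to 5.17 times in RC. The mean share was 48.0 ± 1.70% in TC against 77.0 ± 1.97% in CTRL (SD, n = 3), a difference of -28.9 percentage points with no overlap. The exact two-sided permutation test gave p = 0.1 for TC, PC and RC alike, the smallest that 3 against 3 can give (adjusted p = 0.15 over 9 tests).

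**Figure D2:**
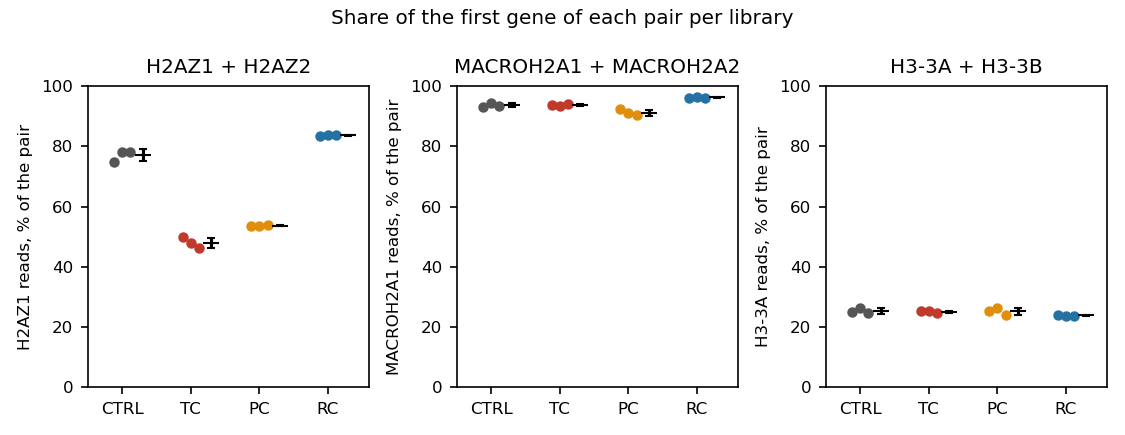
Reads of the first gene of each pair as a percent of the reads of both (y axis, 0 to 100) in each library (points) by group (x axis), with the mean and SD of 3 libraries in black. The H2AZ1 share dropped from 77.0% in CTRL to 48.0% in TC, and the H3-3A share stayed between 23.8 and 26.5% in all 12 libraries.

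The promoters of these 2 genes and of H2AX are shown because the 3 genes differ in response; each run is the 250 bases before the start site in RefSeq on GRCh38.p14, on the gene's own strand. Capitals mark matches on either strand to the TATA box (letters TATAAA), the CCAAT box (letters CCAAT, which read ATTGG from the opposite strand) and the cell cycle homology region, CHR (letters TTTGAA, which read TTCAAA from the opposite strand). On both strands of 35116 windows of 300 bases (the 250 before and 50 after a start), TATAAA was found in 11.5%, CCAAT in 34.6%, TTTGAA in 15.2% and TTTNNCGC, the core of E2F sites, in 6.89%. No match of 1 motif overlapped a match of another in the runs printed here.
H2AZ1 (chr4:99950276-99950525): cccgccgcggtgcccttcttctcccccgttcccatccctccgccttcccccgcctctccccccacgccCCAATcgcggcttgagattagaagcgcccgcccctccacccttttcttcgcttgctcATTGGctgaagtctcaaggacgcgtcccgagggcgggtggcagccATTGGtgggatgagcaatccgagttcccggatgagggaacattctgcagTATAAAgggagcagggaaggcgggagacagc
H2AZ2 (chr7:44848088-44848337): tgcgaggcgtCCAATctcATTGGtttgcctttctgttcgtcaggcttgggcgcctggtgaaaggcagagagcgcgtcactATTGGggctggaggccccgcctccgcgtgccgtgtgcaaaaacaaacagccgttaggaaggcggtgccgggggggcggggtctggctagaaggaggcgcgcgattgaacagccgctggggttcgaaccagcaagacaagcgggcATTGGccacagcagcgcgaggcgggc
H2AX (chr11:119095466-119095715): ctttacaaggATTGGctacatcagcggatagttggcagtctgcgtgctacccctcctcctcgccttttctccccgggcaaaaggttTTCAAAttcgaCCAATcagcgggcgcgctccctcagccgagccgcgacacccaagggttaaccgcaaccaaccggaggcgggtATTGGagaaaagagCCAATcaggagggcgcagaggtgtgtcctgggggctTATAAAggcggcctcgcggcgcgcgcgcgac

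H2AZ1 and H2AX both held TATAAA at -31 and at least 3 CCAAT (3 and 4), and TTTGAA at 5 bases after the start in H2AZ1 and at -164 in H2AX. H2AZ2 held 4 CCAAT and neither TATAAA nor TTTGAA. Of the other variants, TATAAA stood at -31 in H1-10 and at -29 in H3-3B, CCAAT was found in H2AJ (3), H3-3A (1) and H3-3B (4), TTTNNCGC only in H3-3B, at 40, and none of the 4 motifs in either macroH2A gene. These are matches of letters in 1 window per gene and no measure of binding.

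H2AX (chr11:119093874-119095465, minus strand, 1 exon) was, like H2AZ2, below CTRL under MAPKi and above it 2 days after drug removal, with a larger range. It stood at 77.6, 99.5 and 77.4 CPM in CTRL and at 47.0, 49.5 and 48.8 CPM in TC. In PC it was 114, 111 and 125 CPM, and in RC 231, 219 and 200.4 CPM. All TC libraries lay below CTRL, all PC libraries above it, and RC above PC. H2AX fell by 0.81 ± 0.10 in TC (adjusted p = 1.2e-05) and was higher than CTRL by 0.46 ± 0.10 in PC (adjusted p = 0.00103). From TC to PC it rose 1.27 ± 0.10 (2.40-fold, adjusted p = 4.51e-06), and in RC it stood 1.35 ± 0.10 above CTRL (2.55-fold, adjusted p = 7.01e-06). Without CTRL replicate 2, neither H2AX (adjusted p = 0.0925) nor H1-10 (0.0668) passed the 1.5-fold test in TC, which left 1 of 3; DESeq2 gave 0.132 for H2AX in that test. The counts hold no phosphorylated protein.

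Genes that write or read the phosphorylated form of H2A.X changed in both directions. Of 8 tested, 2 were higher and 4 lower in TC (33.2% and 34.7% of all genes). The counts were 2 and 4 in PC (33.2% and 35.9% of all genes) and 4 and 1 in RC (18.2% and 19.1%). MDC1, a reader of the mark and a member of this list, had 169 reads beside 482 under 7 numbered copies of its symbol and is uncertain. PRKDC, the catalytic subunit of DNA-PK, had the greatest fall in TC (-1.37 ± 0.07, adjusted p = 7.07e-09). ATR, the kinase of stalled replication forks, had the greatest rise (0.78 ± 0.06, adjusted p = 2.99e-07). In PC, where H2AX was above CTRL, PRKDC was lower (-1.76 ± 0.07, adjusted p = 1.03e-09).

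H2AJ (chr12:14774405-14778002, plus strand), an H2A variant known from luminal epithelium and senescent cells, was near absent from these counts. It had 6 reads in all, at most 2 in a library and none in 8 of 12 libraries, under the floor of 3 counts. It was not tested, and no fold is given.

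The linker variant H1-10 (chr3:129314771-129316286, minus strand, 1 exon) was low under MAPKi, stayed low in PC and was high in RC. CTRL had 333, 385 and 222 CPM, the widest spread relative to the mean of any variant in that group, with replicate 3 apart. TC had 171, 160.4 and 148 CPM, PC had 188, 164 and 170 CPM, and RC had 465, 469 and 428 CPM. All TC and PC libraries lay below CTRL and all RC libraries above it. H1-10 fell by 0.97 ± 0.15 in TC (adjusted p = 0.000124), and in PC its change from CTRL was -0.85 ± 0.15 (adjusted p = 0.000335). The 1.5-fold test in PC gave an adjusted p of 0.0426 for H1-10, and 0.000187 to 0.31 over 19 alternatives, of which 6 kept the call. It was lost with RLE size factors (0.0555), in DESeq2 (0.31), with a summed count of at least 2 (0.051), in the fit of PC and CTRL alone (0.0869), and without CTRL replicate 1 (0.0999) or 2 (0.235), TC replicate 1 or 2, PC replicate 2 or 3, or any single RC library. The step from TC to PC was 0.12 (95% confidence interval -0.21 to 0.46, adjusted p = 0.614), and from PC to RC H1-10 rose 1.39 ± 0.16 (adjusted p = 5.78e-06). RC was above CTRL by 0.54 ± 0.15 (adjusted p = 0.0166), by 0.34 without CTRL replicate 3, and not past the threshold without RC replicate 2 (adjusted p = 0.0518) or when only RC and CTRL were fitted (0.0534).

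MACROH2A1 (chr5:135334381-135399914, minus strand) reached its lowest level 2 days after drug removal. It stood at 120, 142 and 121 CPM in CTRL, 98.6, 94.4 and 92.2 CPM in TC, 71.3, 73.2 and 71.2 CPM in PC, and 176, 181 and 165 CPM in RC. No group overlapped another. MACROH2A1 fell by 0.43 ± 0.07 in TC (adjusted p = 0.00016) and fell again from TC to PC, by 0.40 ± 0.07 (adjusted p = 0.00141), the only variant that did. It was below CTRL in PC (-0.83 ± 0.07, adjusted p = 5.08e-07) and rose 1.28 ± 0.07 from PC to RC (2.42-fold, adjusted p = 1.14e-08). In RC it was higher than CTRL by 0.45 ± 0.07 (adjusted p = 0.000463). The counts are per gene and do not tell its splice forms, macroH2A1.1 and macroH2A1.2, apart.

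MACROH2A2 (chr10:70052544-70112282, plus strand) was the lowest of the tested variants. It had 9.11, 8.34 and 8.40 CPM in CTRL, 6.63, 6.72 and 5.84 CPM in TC, 5.96, 7.28 and 7.63 CPM in PC, and 7.14, 6.60 and 6.83 CPM in RC. All other libraries lay below CTRL, while TC, PC and RC overlapped. It fell by 0.43 ± 0.12 in TC (adjusted p = 0.00638, range 0.00183 to 0.0309 over 19 alternatives). The lower values in PC (-0.31 ± 0.12, adjusted p = 0.0349, range 0.028 to 0.147) and RC (-0.33 ± 0.12, adjusted p = 0.0453, range 0.0306 to 0.141) passed the threshold in 8 and 4 of 19 alternatives. MACROH2A1 took 93.6 ± 0.75% of the reads of both genes in CTRL, 93.7 ± 0.34% in TC, 91.2 ± 1.00% in PC and 96.2 ± 0.24% in RC (SD, n = 3). PC and RC did not overlap CTRL (exact permutation p = 0.1 each, adjusted p = 0.15), and TC did (p = 0.9).

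The H3.3 genes rose together under MAPKi. H3-3A (chr1:226061851-226072019, plus strand) and H3-3B (chr17:75776434-75785893, minus strand) encode H3.3 in coding sequences of 411 bases, of which 88 differ (78.6% identity), 77 of them at the third codon position. At those 77 positions H3-3A has A or T in 56 and H3-3B in 19. The first 120 coding bases (GENCODE v44) are shown because the 2 genes use different codons and changed by similar amounts; capitals mark the 24 bases that differ.
H3-3A: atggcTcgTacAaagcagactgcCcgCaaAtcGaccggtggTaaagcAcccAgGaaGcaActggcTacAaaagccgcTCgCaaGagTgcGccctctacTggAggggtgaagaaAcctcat
H3-3B: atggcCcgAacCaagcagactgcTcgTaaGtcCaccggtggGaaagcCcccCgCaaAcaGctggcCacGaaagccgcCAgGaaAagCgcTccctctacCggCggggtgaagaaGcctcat

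H3-3A stood at 229, 255 and 226 CPM in CTRL, 349, 362 and 355 CPM in TC, 334, 364 and 333 CPM in PC, and 238, 240.0 and 233 CPM in RC. H3-3B stood at 689, 708 and 687 CPM in CTRL, 1033, 1069 and 1083 CPM in TC, 977, 1016 and 1059 CPM in PC, and 746, 768 and 747 CPM in RC. For both genes all TC and PC libraries lay above all CTRL and RC libraries. H3-3A rose 0.58 ± 0.06 in TC (adjusted p = 3.56e-06) and 0.54 ± 0.06 in PC (adjusted p = 7.07e-06). H3-3B rose 0.61 ± 0.05 in TC (adjusted p = 3.77e-07) and 0.55 ± 0.05 in PC (adjusted p = 9.13e-07). Neither passed the 1.5-fold test. Among all genes tested, the TC changes of H3-3A and H3-3B lay at percentiles 75.3 and 76.2. CPM is relative to the rest of the library, and amounts per cell were not measured.

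In RC, H3-3A was at its CTRL level within the error of the fit (0.00, 95% confidence interval -0.13 to 0.13, adjusted p = 0.993). H3-3B differed by 0.12 (0.01 to 0.23 before adjustment, adjusted p = 0.0811), was called with library totals (adjusted p = 0.0253) and by DESeq2 (0.0244), and its 3 RC libraries lay above CTRL. From PC to RC, H3-3A fell by 0.54 ± 0.06 (adjusted p = 6.87e-06) and H3-3B fell by 0.43 ± 0.05 (adjusted p = 7.42e-06). H3-3A made up 25.4 ± 0.92% of the reads of both genes in CTRL, 25.1 ± 0.33% in TC and 25.2 ± 1.24% in PC (SD, n = 3; exact permutation p = 0.8 and 0.9), and 23.9 ± 0.20% in RC (p = 0.1, adjusted p = 0.15). H3P6, a processed pseudogene of H3-3A, held a further 16.9 to 17.9% of the H3-3A count by group mean and rose 0.60 ± 0.07 in TC (adjusted p = 6.28e-06); reads of the gene and its copy may have been split, so the level of H3-3A is uncertain by about that share. Adding H3P6 to H3-3A changed no call of H3-3A.

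**Figure D3:**
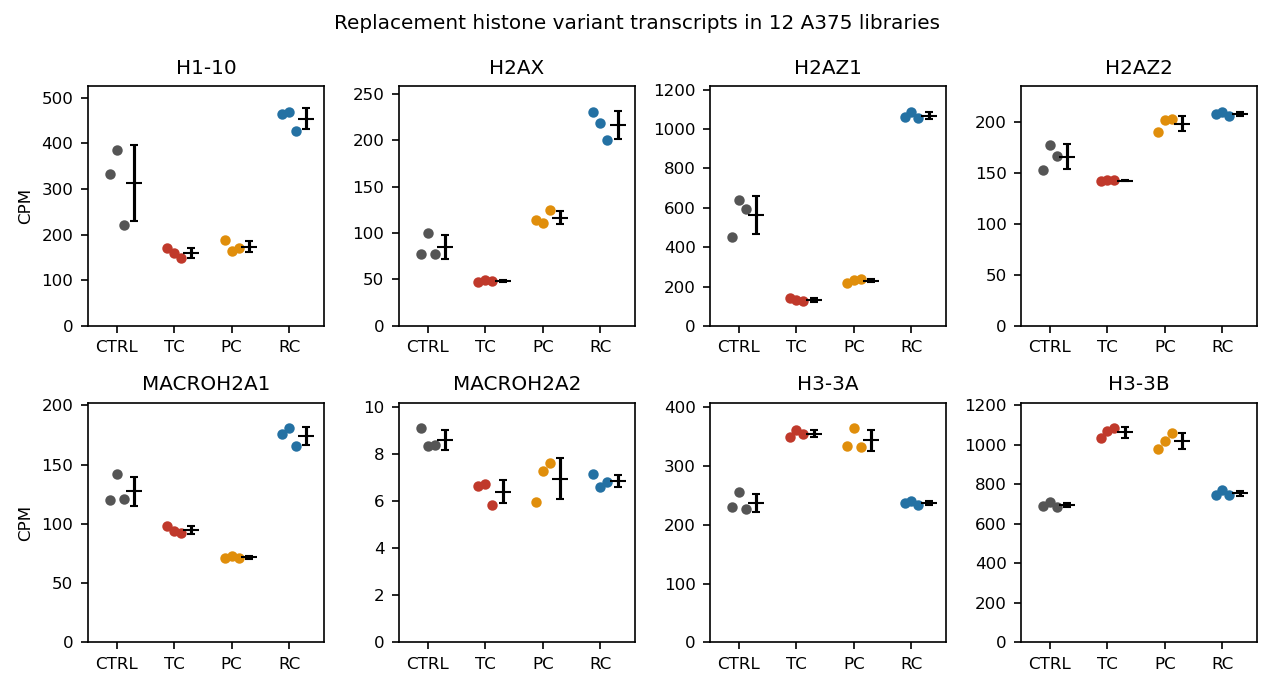
CPM (y axis, from 0, a scale of its own in each panel) of the 8 tested variants in each library (points) by group (x axis), with the mean and SD of 3 libraries in black. TC and PC sit lowest for H1-10, H2AZ1 and MACROH2A1 and highest for H3-3A and H3-3B, and H2AX in PC (111 to 125 CPM) lies above CTRL.

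Levels between genes can be compared only per length. Per kilobase of merged exons, mean CPM in CTRL was 248 ± 42.8 for H2AZ1, 207 ± 55.2 for H1-10, 113 ± 1.93 for H3-3B, 61.9 ± 4.12 for H3-3A, 53.3 ± 7.98 for H2AX, 23.8 ± 1.78 for H2AZ2, 7.5 ± 0.72 for MACROH2A1 and 0.575 ± 0.0285 for MACROH2A2 (SD, n = 3). H2AZ1 and H1-10 lay within their spread of each other, as did H3-3A and H2AX. In TC the order changed at the top: H3-3B led with 173 ± 4.13, followed by H1-10 with 105 ± 7.45, H3-3A with 92.8 ± 1.71 and H2AZ1 with 58.2 ± 3.65. In RC H2AZ1 led again with 471 ± 7.59 and H3-3B held rank 4 with 123 ± 2.06. The merged exons of H2AZ1 (2270 bases) and the macroH2A genes (17013 and 14988 bases) are far longer than their canonical transcripts (866, 1917 and 1932 bases). The same holds for H3-3A (3826 against 1070 bases), H3-3B (6134 against 2705) and H2AZ2 (7003 against 3026). The order depends on this choice. Per kilobase of canonical transcript in TC, H3-3B led (393), followed by H3-3A (332), H2AZ1 (153) and H1-10 (105).

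The study's question concerned codons, in particular those of Asp and Glu, and the variants were set against it as a description. Codons of Asp and Glu made up 6.29% of H2AX, 6.57% of H1-10, 7.03% of H2AZ1 and of H2AZ2, 8.09% of H3-3A and of H3-3B, 9.41% of MACROH2A1 and 11.02% of MACROH2A2, all under the median of 11.9% over 12724 tested genes with a complete coding sequence. GAA and GAT alone made up 3.91% of H2AZ1, 3.12% of H2AZ2, 4.41% of H3-3A, 2.94% of H3-3B, 4.30% of MACROH2A1 and 5.38% of MACROH2A2, and H1-10 and H2AX had none (median of all genes 5.0%). Codons that end in A or T made up 55.15% of H3-3A and 27.94% of H3-3B, which both rose in TC (median of all genes 41.2%). Of the variants that fell in TC, the share was 51.56% in H2AZ1, 49.22% in H2AZ2, 36.56% in MACROH2A1 and 33.06% in MACROH2A2. It was 7.98% in H1-10 and 7.69% in H2AX, which fell as well.

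Genes of the cell division cycle changed beside several variants. MKI67, a proliferation marker, stood at 188 ± 8.88 CPM in CTRL, 11.7 ± 1.42 in TC, 51.5 ± 4.37 in PC and 371 ± 8.43 in RC (SD, n = 3). Of 10 cycling genes, 10 were lower in TC, 9 lower in PC and 10 higher in RC, with medians of -3.71, -1.60 and 0.73. H2AZ1 had the same order of groups as this list (TC, PC, CTRL, RC), whereas H1-10 did not differ by test between TC and PC, MACROH2A1 fell between them and H2AX was already above CTRL in PC. The part of the cell cycle in the changes of the variants was not tested.

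**Figure D4:**
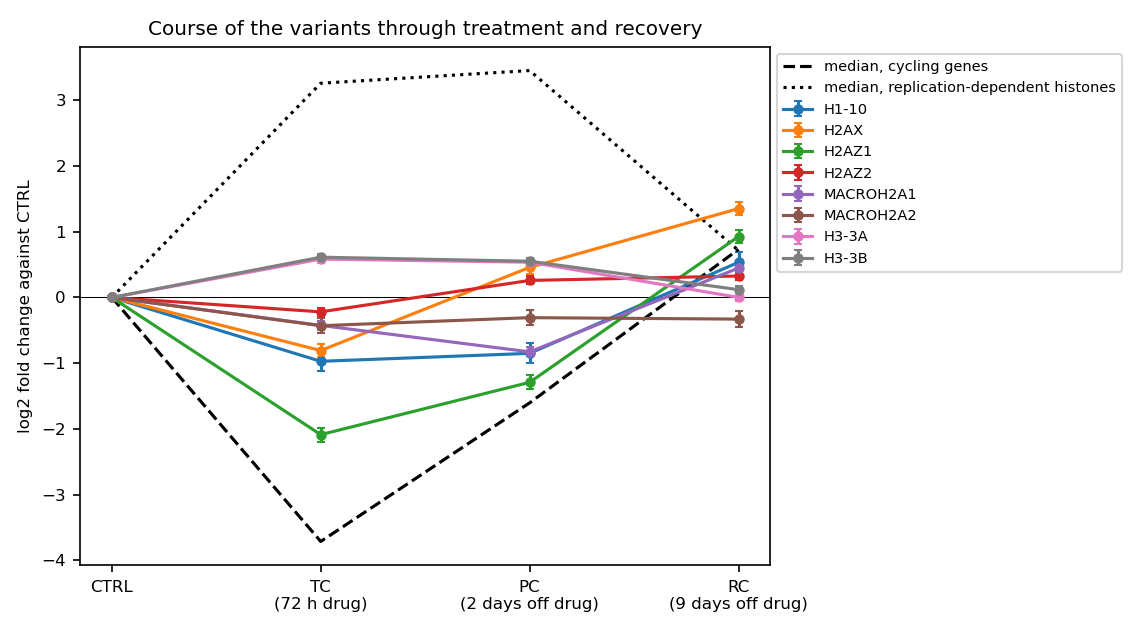
Log2 fold change against CTRL (y axis) in TC, PC and RC (x axis, not to scale in time) for 8 variants (solid, with SE), with the medians of 10 cycling genes (dashed) and 32 replication-dependent histones (dotted). H2AZ1 runs from -2.09 to 0.93 along the cycling genes (-3.71 to 0.73), and the H3.3 genes sit at 0.54 to 0.61 in TC and PC. Some of the 32 histones passed the count filter through TC and PC, which in part sets the dotted line.

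The replication-dependent histone genes that could be tested were mostly higher in TC, where 6 of 8 variants were lower. Of 32 tested among 66 listed, 25 were higher and 2 lower in TC (33.2% and 34.7% of all genes), with a median of 3.26. The filter took the mean count over all 12 libraries, so genes low in CTRL could enter through TC and PC. H4C8, for example, had 0.128 CPM in CTRL, 5.26 in TC and 5.17 in PC. The count and the median are in part set by that filter and are a description only. The summed level of the 66 was 22.6 to 33.5 CPM in CTRL, 491 to 495 CPM in TC, 531 to 533 CPM in PC and 41.0 to 45.4 CPM in RC. A few genes carried most of the TC sum: H2BC12 (149.3 CPM), H1-2 (122.5), H2BC21 (67.8) and H2AC6 (44.5). Many of the others were near or under the floor of 3 counts. How well these counts capture mRNAs that end in a stem-loop was not tested. The 9 variants summed to 2063 to 2415 CPM in CTRL, 1988 to 2016 in TC, 2100 to 2206 in PC and 3042 to 3182 in RC. SLBP, which binds the stem-loop of those mRNAs, fell in TC (-0.57 ± 0.08, adjusted p = 2.95e-05). Of 8 genes that process them, 1 was higher and 5 lower in TC (33.2% and 34.7% of all genes). LSM10 (0.75 ± 0.07, adjusted p = 6.76e-07) and LSM11 (-0.98 ± 0.08, adjusted p = 6.06e-07), both of the U7 particle, were at the ends of the range beyond 1.5-fold. CASP8AP2 (308 reads beside 766 under a numbered copy) and ERI1 (4218 beside 2106), neither called in TC, are uncertain members of that list.

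Of 7 genes for H3.3 deposition, 3 were higher and 1 lower in TC (33.2% and 34.7% of all genes). HIRA, the chaperone of active genes, was not called in any group against CTRL (TC -0.02 ± 0.11, adjusted p = 0.870). ASF1A, which hands H3 to HIRA, had the greatest rise, from 8.80 to 26.4 CPM in TC (1.58 ± 0.13, adjusted p = 3.15e-07). ATRX, the remodeller that works with DAXX in heterochromatin, rose 0.43 ± 0.09 in TC (adjusted p = 0.0015) and in PC was 0.04 from CTRL (adjusted p = 0.717). DAXX had 821 reads over the 12 libraries beside 498 under 4 numbered copies of its symbol, and its value (TC -0.83 ± 0.75, adjusted p = 0.345) is uncertain.

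Of 13 genes for H2A.Z exchange, 4 were higher and 6 lower in TC (33.2% and 34.7% of all genes). PC had 3 higher and 6 lower (33.2% and 35.9% of all genes), and RC had 3 higher and 2 lower (18.2% and 19.1%). SRCAP, the motor of an H2A.Z-loading complex, rose 0.62 ± 0.14 in TC (adjusted p = 0.00201) and 0.63 ± 0.14 in PC (adjusted p = 0.00166), where H2AZ1 was low. ANP32E, which removes H2A.Z, had the greatest fall, from 173 to 58.4 CPM in TC (-1.57 ± 0.09, adjusted p = 2.29e-08), and was above CTRL in RC (0.59 ± 0.09, adjusted p = 0.000461). No gene of this list rose beyond 1.5-fold in TC, and 5 fell beyond it (19.3% of all genes).

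All 8 chaperones coupled to replication were lower in TC, 6 of them beyond 1.5-fold (34.7% and 19.3% of all genes). MCM2 led (-2.65 ± 0.10, adjusted p = 8.4e-10), a subunit of the replicative helicase that also binds H3-H4. ASF1B of this list had only 189 reads in all, with 3, 6 and 4 in the TC libraries, near the floor of 3 counts, and is uncertain. The centromeric H3 variant CENPA had 38.7 CPM in CTRL, 3.13 in TC, 14.4 in PC and 74.8 in RC (TC -3.63 ± 0.15, adjusted p = 1.03e-09). Its chaperone HJURP fell with it (97.1 to 7.97 CPM in TC, adjusted p = 1.17e-08), as did all 4 genes of the CENPA loading list. Of 6 general chaperones, 5 were lower in TC (34.7% of all genes), led by SSRP1 of the FACT complex (479 to 165 CPM, adjusted p = 1.01e-09). NAP1L4 of this list had 11239 reads beside 3293 under a numbered copy of its symbol and is uncertain. Medians in TC were -0.02 for the H3.3 list, -0.22 for H2A.Z exchange, -1.44 for replication-coupled, -2.38 for CENPA and -0.73 for general chaperones, beside -0.02 for all genes.

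**Figure D5:**
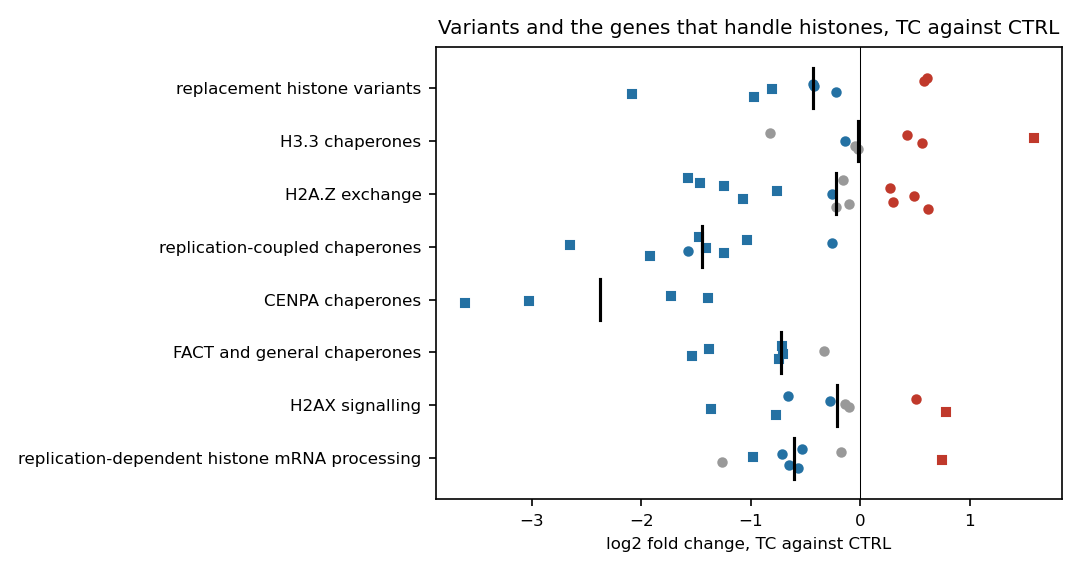
Log2 fold change in TC against CTRL (x axis) of each tested gene (points) in 8 lists (y axis), with black bars at list medians. Red was higher, blue lower and grey not called, and squares passed the 1.5-fold test. Every called point of the replication-coupled and CENPA lists is blue, and ASF1A (1.58) is the red square of the H3.3 list.

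The genes with the nearest profile to each variant, by root mean square difference of centred log2 CPM over the 12 libraries among about 9535 genes of at least 10 CPM, differed between variants. For H2AZ1 they were KIF23 (0.0701), UBE2T (0.0948) and RACGAP1 (0.119). For H2AX they were C21orf58 (0.181), DTYMK (0.185) and CENPO (0.227), a looser match. For H2AZ2 they were PPIL1 (0.0703), RFK and PAFAH1B3, and for H1-10 LOC107984011 (0.137), HDGFL2 and XRCC4. For MACROH2A1 they were CCT3 (0.0926), PRDX3 and MRPS31, and for MACROH2A2 C12orf4 (0.084), TOMM20 and GTPBP8. H3-3A was nearest to H3P6 (0.0478), DAZAP2 and CAPZA2, and H3-3B to ACTR2 (0.0464), VTI1B and PTK2. No variant was among the 3 nearest of another. These points share libraries and groups, and likeness is a description.

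Antisense or overlapping genes are annotated at H1-10 (H1-10-AS1), H2AZ1 (H2AZ1-DT), MACROH2A1 (PITX1-AS1), MACROH2A2 (AIFM2), H3-3A (H3-3A-DT) and H3-3B (UNK). Whether counting used strand was not stated, so reads of these partners cannot be told apart from those of the variants. H2AZ2, H2AX and H2AJ have none in GENCODE v44.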

How the data were processed

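RNA from cytoplasmic lysates was depleted of ribosomal RNA and sequenced in paired reads. The authors trimmed reads with fastp 0.20.1, aligned them to GRCh38.p13 with HISAT2 2.2.1 and counted them per gene with HTSeq 0.13.5, per the labels' processing notes, and deposited raw counts, which are not normalized. Strand use and multiply aligned reads were not stated. Members and lists were chosen with earlier results of these data known.

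Genes with a library-scaled mean count of at least 10 were tested (15916 of 44659). TMM factors (0.965 to 1.02) and 1 quasi-likelihood model of the 4 group means were fitted to the 12 libraries with edgeR 4.0.16 in R 4.3.3, with 5 two-sided comparisons and Benjamini-Hochberg adjustment over all genes tested. A call is an adjusted p under 0.05, and beyond 1.5-fold a glmTreat adjusted p of at most 0.05. SEs came from the F statistic. Shares of gene pairs were tested by exact permutation. Lengths, coding sequences and gene positions came from GENCODE 44 and promoters from RefSeq (9 of 9 members matched), not the counting annotation. Genes named beside the members were, by rule, the 3 nearest profiles of each, the largest rise and fall in TC beyond 1.5-fold of each handling list, and HIRA, DAXX, ATRX, SRCAP, HJURP, CENPA, SLBP and MKI67; 1 further gene of that rule is not reported here. H3P6 was added as the copy of H3-3A, and H1-8 after its values were seen. Alternatives were other normalizations, DESeq2 1.42.0, another filter, a replicate block, 2-group fits, H3P6 added and each library left out. The test was tried on simulated data with far fewer changed genes than here. Of 100 genes changed 2-fold in TC, 80 were called and 46 passed the 1.5-fold test. Of 100 changed 4-fold, 96 were called and 94 passed it, with 8 false calls among 15716 unchanged genes. Failing the 1.5-fold test therefore does not show a change under 1.5-fold. No pair of replicates was a duplicate.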

Additional observations from a re-analysis of the deposited data

Results flagged for a closer look

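For 5 variants the change from CTRL had opposite signs at 2 times and the direct test between those times passed. H2AZ1, H1-10 and MACROH2A1 were below CTRL in PC and above it in RC, and the difference between RC and PC was 2.22, 1.39 and 1.28 on the log2 scale (edgeR adjusted p = 4.06e-09, 5.78e-06 and 1.14e-08; higher in 3 of 3 libraries each). H2AX and H2AZ2 were below CTRL in TC and above it in PC, with a difference of 1.27 and 0.48 (adjusted p = 4.51e-06 and 0.000159; higher in 3 of 3 libraries each). Of all genes tested, 35.7% were higher and 34.2% lower from PC to RC, and 12.2% and 12.5% from TC to PC. The share of all genes that met the full rule was not computed, so the 5 are a description only. The cause was not tested.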

How the results depend on the processing

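Over 19 alternatives, 722 of 760 member values kept their direction and side of the threshold, 29 lost and 2 gained the call, and 7 changed sign, none of a called value. The sign changes were H3-3A in RC against CTRL (-0.0087 with H3P6 added, and -0.0267 to 0.0572 leaving out 1 library: -0.0216 without CTRL replicate 1, -0.0267 without CTRL replicate 3, -0.0056 without RC replicate 2) and MACROH2A2 in RC against PC (0.0047 with library totals, and -0.1209 to 0.0493 leaving out 1 library, with 0.0115 and 0.0493 without PC replicates 2 and 3). Members lower in RC numbered 1, and 0 with library totals, RLE size factors, a summed count of at least 2, the replicate block or only the 2 groups (0 to 1 leaving out 1 library). Members higher beyond 1.5-fold in RC numbered 1 with only the 2 groups (1 to 2 leaving out 1 library), and in PC against TC 2 with only the 2 groups (1 to 2). Members lower beyond 1.5-fold in TC numbered 1 to 3 leaving out 1 library, with 1 without CTRL replicate 2. In PC against CTRL they numbered 3, and 2 in the 13 of 19 alternatives that lost H1-10 (2 to 3 leaving out 1 library). With canonical transcript length, added after the data were seen, the ranks in CTRL were H3-3B 2, H3-3A 3, H1-10 4, MACROH2A1 5 and H2AX 7. Same-numbered libraries had correlated deviations over 0.1 in 2 of 18 pairs (-0.0373 to 0.155, median 0.0108), so numbers were not treated as pairs. Both were TC-PC pairs (0.155, 0.0679 and 0.124 for numbers 1 to 3), and each TC and PC library correlated best with its own number in the other group. The same held between CTRL and TC (0.0393, 0.0519 and 0.0807) and between CTRL and PC (0.0417, 0.0411 and 0.00932). It did not hold throughout in pairs with RC (-0.0373 to 0.0123). This is a hint from the data and not from the design. A batch shared by number in CTRL, TC and PC is possible, and the main fit did not model it. The replicate block changed the genes called from 10807 to 10858 in TC against CTRL and from 3936 to 4038 in PC against TC, and cost MACROH2A2 its calls in PC (adjusted p = 0.0533) and RC (0.0666). Counts of H2AJ were too few for any comparison.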

Other observations

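Of 18 other replacement variants listed, 14 were in the table and 4 were tested. H1-8, a linker variant of oocytes named here after its values were seen, had 0.179 CPM in CTRL, 0.486 in TC, 0.833 in PC and 0.133 in RC. It was higher in TC by 1.41 ± 0.37 (edgeR adjusted p = 0.00513) and in PC by 2.19 ± 0.37 (adjusted p = 0.000187), at levels near the floor of the libraries.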
